A study of Bos taurus with 38 samples.

Results

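The MHC class II genes CD74, BOLA-DRA, BOLA-DMA and BOLA-DMB were examined in Longissimus dorsi (LD) muscle biopsies of 38 newborn beef calves. They were chosen by name, as genes of class II antigen presentation that the study had listed on the same calves, and are 4 of the 27607 genes of the count table. CD74 is ENSBTAG00000015228, BOLA-DRA is ENSBTAG00000010645, BOLA-DMA is ENSBTAG00000015730 and BOLA-DMB is ENSBTAG00000012451. The calves were born to Angus-cross cows, and all cows, controls included, had a mineral mix with Na selenite. The cows of the control group (CTR, 10 calves, 4 females and 6 males) received no Se-yeast. The other cows were given Se-yeast boluses, 105 mg of Se per week for 13 weeks, in the first trimester of gestation (TR1, 9 calves, 2 females and 7 males), the second (TR2, 10 calves, 3 females and 7 males) or the third (TR3, 9 calves, 5 females and 4 males). Biopsies were taken 12 to 48 h after birth. Dams were 5 to 9 years old. They had been bred to 1 sire or to several bulls, and the sire of each calf was not used here.

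MHC class II molecules carry peptides from ingested and internal material to the cell surface, where helper T cells read them. Dendritic cells, macrophages and B cells make them constantly, and other cells, muscle fibers included, can make them when interferon gamma switches on CIITA, the master coactivator of these genes. CD74 is the invariant chain, which escorts the newly made class II dimer and blocks its groove. BOLA-DRA is the alpha chain of the bovine DR molecule, a classical peptide-presenting dimer. BOLA-DMA and BOLA-DMB are the chains of DM, which stays inside the cell and swaps the remnant of CD74 for other peptides. BOLA is the bovine name of the MHC, and in the RefSeq gene table of another build (ARS-UCD2.0) BOLA-DMB and BOLA-DMA are neighbors, whereas BOLA-DRA lies next to BOLA-DRB2 and CD74 between TCOF1 and RPS14.

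Total counts ranged from 12921223 to 17471666 per calf, and the scaling factors (TMM) from 0.887 to 1.35. The tissue label held in every calf: ACTA1, the actin of skeletal muscle fibers, was between 8701 and 64566 CPM (counts scaled by the effective size of each library). All 4 class II genes were counted in all 38 calves, with 220 to 4020 reads for CD74, 50 to 1420 for BOLA-DRA, 30 to 322 for BOLA-DMA and 11 to 372 for BOLA-DMB, and all passed the filter on low counts. The strand setting of the counting is not given in the sources used here. Reads shared with near-identical copies of MHC genes may have been lost, so the levels of the BOLA genes are uncertain to that extent. Gene lengths were not used, so levels are compared only within a gene.

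All 4 genes had their highest mean in CTR, followed by TR3, TR1 and TR2. Against CTR, the mean level in TR2 was 0.649 times as high for CD74, 0.529 for BOLA-DRA, 0.614 for BOLA-DMA and 0.523 for BOLA-DMB. No difference between groups passed the test over all genes for any of the 4 genes, and the groups overlapped widely. The calves differed from each other far more than the groups did, and the 4 genes rose and fell together from calf to calf.

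CD74, the invariant chain, had 137 ± 76.3 CPM (SD, n = 10) in CTR, 103 ± 43.1 (n = 9) in TR1, 88.9 ± 47.3 (n = 10) in TR2 and 117 ± 67.2 (n = 9) in TR3. In CTR it ranged from 48.5 to 269 CPM around a median of 139. The TR1 calves lay between 41.3 and 174 CPM, with a median of 99.2. The TR2 calves spanned 17.4 to 179 CPM around 92.4. In TR3 the lowest calf had 51.9 CPM, the median calf 98.0 and the highest 233. No supplemented calf exceeded the highest CTR calf, and 7 of 9 TR1, 9 of 10 TR2 and 6 of 9 TR3 calves were below the CTR median. The 10 CTR calves themselves fell on both sides, with 6 calves at 122 CPM or above and 4 at 76.5 or below.

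BOLA-DRA, the chain of the presenting dimer, had 39.0 ± 28.1 CPM (SD, n = 10) in CTR, 25.1 ± 10.9 (n = 9) in TR1, 20.6 ± 12.6 (n = 10) in TR2 and 29.2 ± 21.3 (n = 9) in TR3. CTR calves ran from 11.8 to 95.1 CPM with a median of 35.0. Those of TR1 ran from 7.32 to 40.7 around 26.7. In TR2 the lowest calf had 3.95 CPM, the median was 18.8 and the highest calf had 45.8. TR3 calves were between 11.4 and 73.2, with a median of 24.5. Below the lowest CTR calf were 1 TR1, 4 TR2 and 3 TR3 calves, while 5 CTR calves were above every TR1 calf and 3 were above every TR2 calf.

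BOLA-DMA, a chain of the peptide editor, had 10.3 ± 5.53 CPM (SD, n = 10) in CTR, 7.89 ± 2.29 (n = 9) in TR1, 6.36 ± 2.37 (n = 10) in TR2 and 8.48 ± 5.21 (n = 9) in TR3. Its CTR calves ranged from 4.94 to 21.6 CPM (median 8.72) and its TR1 calves from 3.42 to 10.8 (median 8.29). The TR2 calves lay between 2.37 and 9.65 (median 6.86) and the TR3 calves between 3.31 and 18.7 (median 6.17). By the median, then, TR3 and not TR2 was the lowest group for BOLA-DMA. Below the lowest CTR calf were 1 TR1, 3 TR2 and 2 TR3 calves, and 5 CTR calves were above every TR2 calf.

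BOLA-DMB had 10.0 ± 7.64 CPM (SD, n = 10) in CTR, 6.82 ± 3.05 (n = 9) in TR1, 5.25 ± 3.25 (n = 10) in TR2 and 7.66 ± 5.45 (n = 9) in TR3. CTR calves were between 3.23 and 24.9 CPM, with a median of 8.12, and TR1 calves between 2.42 and 11.1, with a median of 8.03. TR2 calves went from 0.869 to 11.8 around 4.91, and TR3 calves from 2.87 to 17.8 around 5.58. The medians of CTR and TR1 were thus nearly equal, with a ratio of 0.989, while their means had a ratio of 0.681, and 3 CTR calves were above every TR1 calf. For each of the 4 genes, means of groups next to each other in the order CTR, TR3, TR1 and TR2 differed by less than the SD of either group. By the median TR1 was above TR3 for each gene, so the order of the groups depended on the summary used.

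**Figure D1:**
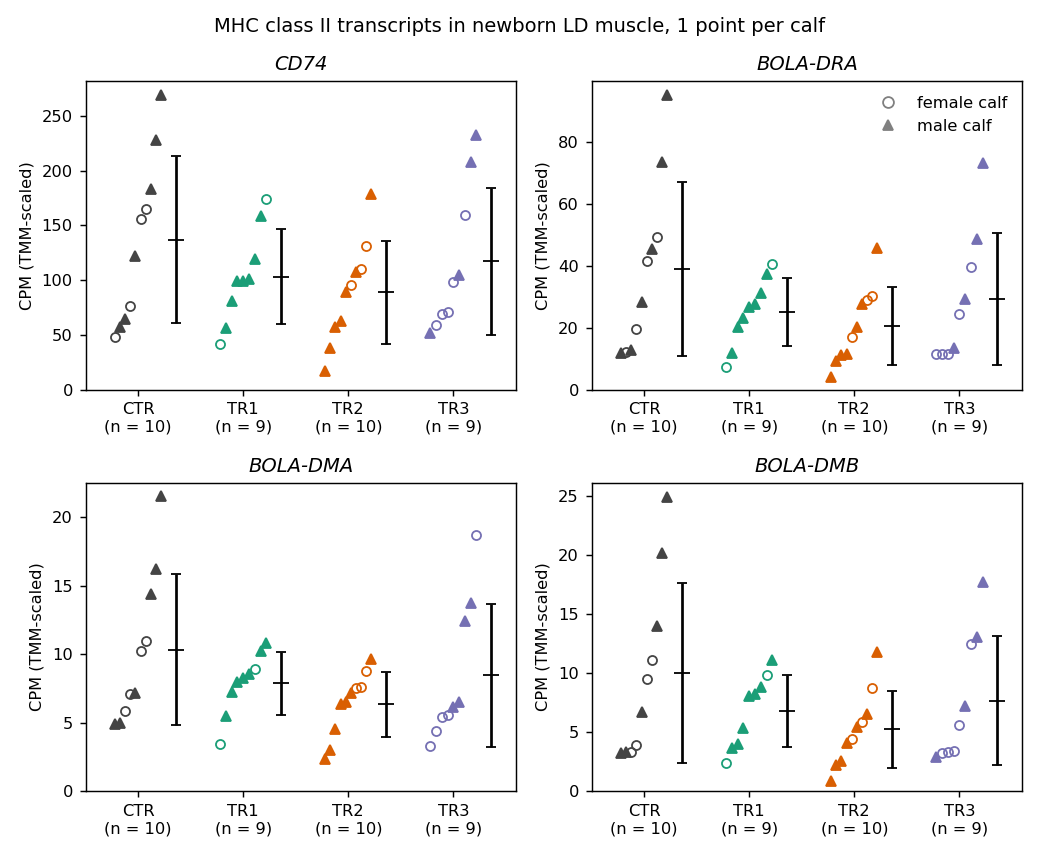
CPM (TMM-scaled, linear axis from 0) of the 4 class II genes in each of 38 calves by treatment group, with open circles for females and filled triangles for males; the bar beside each group is the mean ± SD. The same male CTR calf is the highest for each gene, reaching 269 CPM for CD74, and the groups overlap throughout.

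The question asked of each comparison was whether class II transcripts differed between calves of supplemented and control dams. In the comparison of TR2 vs. CTR, all 4 genes were lower. The log2 fold change was -0.65 ± 0.35 (SE) for CD74, with a 95% confidence interval from -1.35 to 0.06. BOLA-DRA stood at -0.95 ± 0.42 (interval -1.80 to -0.11) and BOLA-DMA at -0.74 ± 0.29 (interval -1.32 to -0.15). BOLA-DMB had -0.96 ± 0.41, with an interval from -1.81 to -0.12. The unadjusted p of edgeR's quasi-likelihood test was 0.0720 for CD74, 0.0285 for BOLA-DRA, 0.0146 for BOLA-DMA and 0.0256 for BOLA-DMB. After Benjamini-Hochberg adjustment over 12964 genes the p-values were 0.601, 0.578, 0.545 and 0.578 in that order, so none of the 4 genes was called. All 38 calves entered this fit, with dam age and sex as covariates, and its p-values set each difference against the spread between calves. The study assigned cows to groups in randomized blocks, and the block was not in the fit.

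That outcome can be read against all genes tested. In TR2 vs. CTR edgeR called 0 genes (0% of those tested), with 1081 at an unadjusted p under 0.05, and DESeq2 called 1 gene, which was none of the 4. Of the class II genes, 3 of 4 were lower at an unadjusted p under 0.05, whereas 3.31% of all genes were. All 4 were below 0, against 48.7% of all genes. This list was drawn up by the study from these same calves, so its direction is not independent evidence. The count also rested on single calves: without CTR replicate 1, the highest calf for each of the 4 genes, 0 of 4 were under 0.05, and the log2 fold changes were -0.48, -0.72, -0.54 and -0.72 for CD74, BOLA-DRA, BOLA-DMA and BOLA-DMB. Without CTR replicate 3 or TR2 replicate 1, 1 of 4 was under that level, and without CTR replicate 4, TR2 replicate 4 or TR2 replicate 8, 2 of 4 were. All 4 were under it without CTR replicate 6, 7 or 9 or without TR2 replicate 3 or 5, with library size scaling and in males only. Over all alternatives the adjusted p of the 4 genes ran from 0.250 to 0.984.

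TR1 vs. CTR gave smaller differences in the same direction. CD74 differed by -0.38 ± 0.36 (SE, log2), BOLA-DRA by -0.64 ± 0.42, BOLA-DMA by -0.35 ± 0.30 and BOLA-DMB by -0.55 ± 0.42. All 4 intervals included 0, and the lowest unadjusted p was 0.142, for BOLA-DRA. The adjusted p of edgeR was 1.00 for each gene. Both edgeR and DESeq2 called 0 genes here (0% of those tested), and 331 genes had an unadjusted p under 0.05 in edgeR and 367 in DESeq2. None of the 4 genes was lower at an unadjusted p under 0.05, against 0.856% of all genes, and all 4 were below 0, against 49.6%. Without CTR replicate 1 the differences were -0.19 for CD74, -0.37 for BOLA-DRA, -0.12 for BOLA-DMA and -0.27 for BOLA-DMB. Without TR1 replicate 4 they were -0.62, -0.93, -0.46 and -0.79 in the same order, and BOLA-DRA then had an unadjusted p of 0.0408.

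In TR3 vs. CTR CD74 differed by -0.13 ± 0.38 (SE, log2), BOLA-DRA by -0.32 ± 0.44, BOLA-DMA by -0.12 ± 0.30 and BOLA-DMB by -0.23 ± 0.43, and the intervals reached from -0.89 to 0.63, from -1.20 to 0.57, from -0.74 to 0.50 and from -1.10 to 0.65. The intervals are wide on both sides of 0, so the comparison does not show that the levels were alike. Here too both tools called 0 genes (0%), with 175 by edgeR and 197 by DESeq2 at an unadjusted p under 0.05. Of the 4 genes 0 were lower at that level, against 0.579% of all genes, and all 4 were below 0, against 52.8%. Without CTR replicate 1 the differences were 0.063 for CD74, -0.045 for BOLA-DRA, 0.096 for BOLA-DMA and 0.047 for BOLA-DMB, so 3 of the 4 changed sign. Without TR3 replicate 2 they were -0.30, -0.58, -0.24 and -0.46 in the same order, without TR3 replicate 4 BOLA-DMA was at -0.41, and with dam age as classes they were -0.31, -0.51, -0.21 and -0.44.

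Averaged over the 3 supplemented groups, the genes differed from CTR by -0.39 ± 0.28 (SE, log2) for CD74, -0.63 ± 0.33 for BOLA-DRA, -0.40 ± 0.23 for BOLA-DMA and -0.58 ± 0.33 for BOLA-DMB. The unadjusted p was 0.180, 0.0589, 0.0919 and 0.0828, and the adjusted p of edgeR 1.00 throughout. edgeR and DESeq2 called 0 genes (0%), with 251 genes in edgeR and 275 in DESeq2 below an unadjusted p of 0.05, and 0 of the 4 class II genes were lower at that level, against 0.818% of all genes. Below 0 were all 4, against 49.6% of all genes. These comparisons share the CTR calves, so their common direction counts once. Leaving out CTR replicate 1 took the averaged differences to -0.21, -0.38, -0.19 and -0.31 in the same order of genes. Without CTR replicate 7 or 9, 3 of 4 were lower at an unadjusted p under 0.05, and without TR3 replicate 2, 2 of 4 were.

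**Figure D2:**
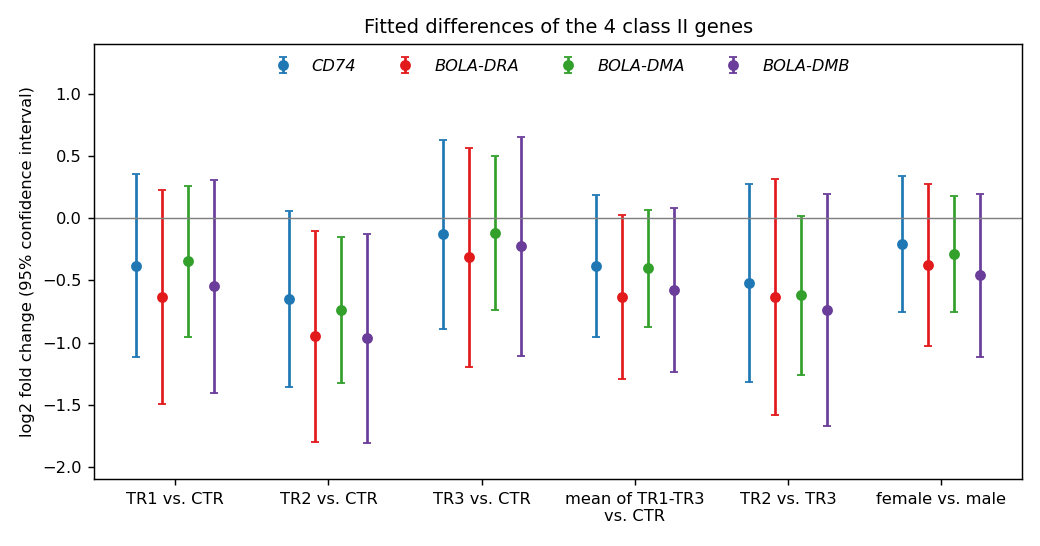
Log2 fold change and its 95% confidence interval (edgeR, 38 calves, dam age and sex as covariates) of CD74, BOLA-DRA, BOLA-DMA and BOLA-DMB in 6 comparisons. The intervals of BOLA-DRA, BOLA-DMA and BOLA-DMB lie below 0 in TR2 vs. CTR, all other intervals include 0, and no adjusted p was under 0.05.

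The genes were also placed on the scale by which the study called differences. On this scale the difference of group means of variance-stabilized values is centered and divided by its SD over all genes, so the spread between calves does not enter, and it is a description here. In TR1 vs. CTR the values were -1.91 for CD74, -2.63 for BOLA-DRA, -1.54 for BOLA-DMA and -1.80 for BOLA-DMB. In TR2 vs. CTR they were -3.28, -4.09, -2.73 and -3.39 in the same order, and in TR3 vs. CTR -1.61, -2.92, -2.15 and -2.14. All 4 genes were at -1.5 or lower in each comparison, where 5.19% of all genes were in TR1, 5.48% in TR2 and 5.04% in TR3. As the study listed the 4 genes with a threshold of 1.5 on these calves, that count followed from the choice of genes and nothing is read from it. BOLA-DRA ranked 26th from the lowest of 12964 genes in TR2. On log2 CPM in place of variance-stabilized values, CD74, BOLA-DMA and BOLA-DMB moved inside -1.5 in TR1 vs. CTR (-1.38, -1.27 and -1.46), as did CD74 in TR3 vs. CTR (-1.10).

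The supplemented groups were compared with each other in the same fit of 38 calves, in which CTR calves share in the estimate of the spread and of the covariates. In TR2 vs. TR3 the genes differed by -0.52 ± 0.39 (SE, log2) for CD74, -0.64 ± 0.47 for BOLA-DRA, -0.62 ± 0.32 for BOLA-DMA and -0.74 ± 0.46 for BOLA-DMB, with unadjusted p-values of 0.195, 0.182, 0.0572 and 0.118. The adjusted p of edgeR was 0.653, 0.646, 0.529 and 0.584, and edgeR called 0 of all genes (0%), with 1227 at an unadjusted p under 0.05. With TR2 and TR3 calves alone in the fit, the differences were -0.92 ± 0.49 (SE, log2) for CD74, -1.27 ± 0.55 for BOLA-DRA, -0.89 ± 0.37 for BOLA-DMA and -1.27 ± 0.54 for BOLA-DMB. In that fit 3 of 4 had an unadjusted p under 0.05 (0.0325 for BOLA-DRA, 0.0251 for BOLA-DMA and 0.0286 for BOLA-DMB, against 0.0744 for CD74), and the adjusted p was 0.996 for each. Single calves also moved the comparison: CD74 was at -0.32 without TR2 replicate 1, BOLA-DRA at -0.39 without TR3 replicate 2 and BOLA-DMA at -0.31 without TR3 replicate 4. In the other direction, BOLA-DMA had an unadjusted p of edgeR under 0.05 in 10 of the 38 fits without 1 calf. The lowest was 0.0312, without TR3 replicate 5. With library size scaling or with no filter on low counts, 1 of 4 genes was under 0.05. A test of any difference among TR1, TR2 and TR3 gave unadjusted p-values of 0.427, 0.405, 0.155 and 0.289, and one of any difference among the 4 groups 0.293, 0.139, 0.0842 and 0.136. Both called 0 of the 4 class II genes and 0% of all genes, where 993 genes (supplemented groups) and 790 genes (all groups) had an unadjusted p under 0.05. DESeq2 called 0 genes in these 3 tests. The treatment group accounted for 8.14% of the variance of log2 CPM for CD74, 9.63% for BOLA-DRA, 11.3% for BOLA-DMA and 9.67% for BOLA-DMB. Such shares are above 0 even where groups do not differ. The SD within groups was close to that over all calves, 0.841 against 0.842 for CD74 and 0.683 against 0.696 for BOLA-DMA.

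Sex and dam age were fitted beside the group. The fitted difference of females from males was -0.21 ± 0.27 (SE, log2) for CD74, -0.38 ± 0.32 for BOLA-DRA, -0.29 ± 0.23 for BOLA-DMA and -0.46 ± 0.32 for BOLA-DMB, and none of the 4 was among the 4 genes called (0.0309% of all genes) by edgeR. Without TR1 replicate 4 these differences were -0.46, -0.68, -0.41 and -0.72, with an unadjusted p of 0.0492 for BOLA-DMB, and without TR1 replicate 5 that of CD74 was -0.11. Per year of dam age the genes differed by 0.07 ± 0.11, 0.08 ± 0.13, 0.15 ± 0.09 and 0.11 ± 0.12, with 0 genes called (0%) by edgeR and by DESeq2 and 436 (edgeR) at an unadjusted p under 0.05. Leaving out 1 calf took the slope from 0.021 to 0.15 for CD74, from 0.027 to 0.17 for BOLA-DRA, from 0.076 to 0.18 for BOLA-DMA and from 0.062 to 0.19 for BOLA-DMB. The upper ends were without TR1 replicate 4, and the lower ends without TR2 replicate 1 (CD74 and BOLA-DRA) or TR3 replicate 4 (BOLA-DMA and BOLA-DMB). BOLA-DMA had an unadjusted p of 0.0482 without CTR replicate 1, and a slope of 0.013 in males only. The interaction of supplementation with sex was 0.43 ± 0.59 for CD74, 0.30 ± 0.70 for BOLA-DRA, 0.34 ± 0.50 for BOLA-DMA and 0.58 ± 0.70 for BOLA-DMB, again with 0 genes called (0%) by both tools and 389 (edgeR) at an unadjusted p under 0.05. Leaving out 1 calf took it from 0.18 to 0.70 for CD74, from -0.089 to 0.63 for BOLA-DRA, from 0.0087 to 0.49 for BOLA-DMA and from 0.20 to 0.91 for BOLA-DMB, the lower ends without CTR replicate 6 for CD74 and without CTR replicate 1 for the others. Among males alone, TR2 vs. CTR gave -0.96 ± 0.44 for CD74, -1.26 ± 0.51 for BOLA-DRA, -1.02 ± 0.35 for BOLA-DMA and -1.32 ± 0.52 for BOLA-DMB. Their adjusted p-values ranged from 0.250 to 0.337. In the same order, males alone gave -0.59, -0.81, -0.46 and -0.78 in TR1 vs. CTR, 0.056, -0.0052, -0.22 and -0.14 in TR3 vs. CTR and -1.01, -1.25, -0.80 and -1.18 in TR2 vs. TR3. The 3 TR2 females and the 4 CTR females had means of 113 ± 17.9 and 111 ± 57.8 CPM (SD) for CD74 and of 25.4 ± 7.18 and 30.7 ± 17.54 for BOLA-DRA. For BOLA-DMA they had 7.96 ± 0.701 and 8.54 ± 2.46, and for BOLA-DMB 6.33 ± 2.19 and 6.98 ± 3.90. TR1 held 2 females, so the sexes were not compared further.

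The 4 genes varied together across the calves. Pearson's r over 38 calves on log2 CPM was 0.98 for CD74 with BOLA-DRA, 0.96 for CD74 with BOLA-DMB and 0.97 for BOLA-DRA with BOLA-DMB. BOLA-DMA followed less closely, with r = 0.87 to CD74, 0.88 to BOLA-DRA and 0.92 to BOLA-DMB, its partner chain. Spearman's rho of the 6 pairs ran from 0.85 to 0.96. The permutation p (two-sided) was 1e-05 for each of the 6 r and 6 rho values, the smallest that 100000 permutations can give, and 1e-05 after adjustment over the 6 pairs. Without the pair of calves farthest from the median of the x gene, CTR replicate 1 and TR2 replicate 1, r was still between 0.83 and 0.97. On residuals after dam age, sex and group r was between 0.85 and 0.98. Within TR1 (9 calves) BOLA-DMA had r = 0.66 with CD74, 0.67 with BOLA-DRA and 0.77 with BOLA-DMB, and all other pairs within groups were between 0.82 and 0.99. The first principal component of the 4 genes held 94.7% of their variance.

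CTR replicate 1 was the highest of the 38 for all 4 genes, and TR2 replicate 1 the lowest. Between this pair of calves the levels differed 15.5-fold for CD74, 24.1-fold for BOLA-DRA, 9.10-fold for BOLA-DMA and 28.7-fold for BOLA-DMB. The same 6 calves were among the 10 highest for every gene, and 3 of them were CTR and 3 TR3 calves. The same 5 were among the 10 lowest for every gene, of which 1 was CTR, 1 TR1 and 3 TR2. No TR1 or TR2 calf was among the 10 highest for all 4 genes, and no TR3 calf among the 10 lowest for all 4. That depended on asking for all 4 genes. TR1 replicates 4 and 8, TR2 replicate 3 and CTR replicates 4 and 10 were among the 10 highest for 3 of 4 genes. TR3 replicates 5 and 6 were among the 10 lowest for 3 of 4 genes. The widest spread of ranks within a calf was in TR1 replicate 3, which was 9th of 38 for BOLA-DMA with 10.3 CPM and 33rd for CD74 with 56.4 CPM. TR2 replicate 5 followed, 12th for CD74 and 23rd for BOLA-DMB.

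Ratios within a calf do not depend on the scaling of its library. The count of CD74 over that of BOLA-DRA ranged from 2.83 to 6.20 across the calves, and its SD of 0.26 on the log2 scale was well under that of either gene (0.84 and 1.01). The ratio of BOLA-DRA to BOLA-DMB had an SD of 0.26 and that of BOLA-DRA to BOLA-DMA one of 0.51. The lowest CD74 to BOLA-DRA ratio was that of CTR replicate 1, the calf with the highest level of both genes. The biological coefficient of variation fitted by edgeR was 0.52 for CD74, 0.61 for BOLA-DRA, 0.43 for BOLA-DMA and 0.61 for BOLA-DMB, against a median of 0.25 over all genes, and 85.3% to 95.2% of genes had a lower value.

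**Figure D3:**
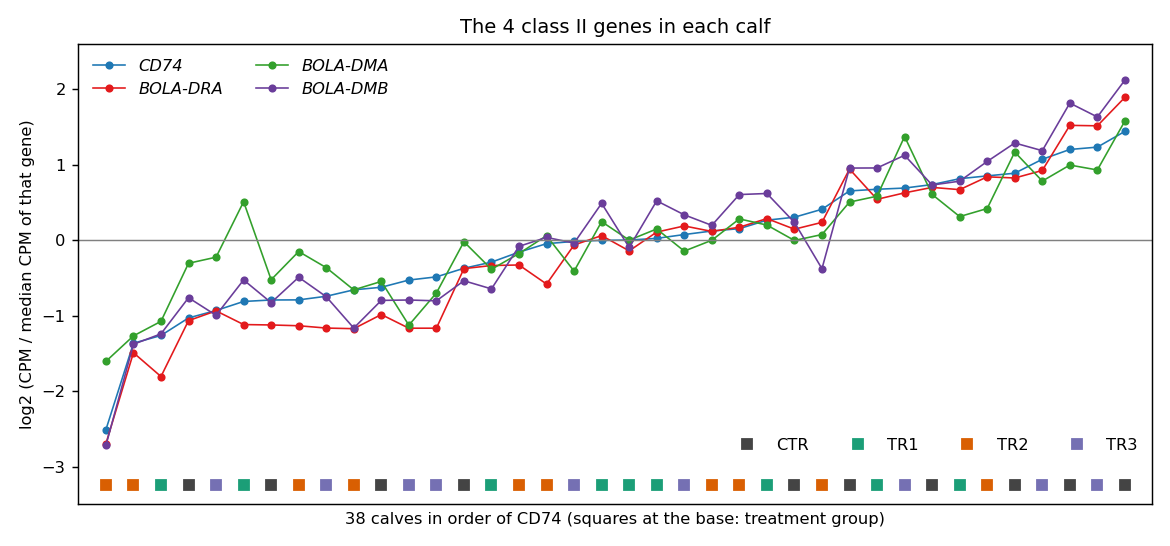
Log2 of CPM over the median CPM of the same gene for CD74, BOLA-DRA, BOLA-DMA and BOLA-DMB in 38 calves in order of CD74, with the treatment group of each calf as a colored square at the base. The lines run together, BOLA-DMA departs most, and CTR calves occur at both ends.

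Other genes of the pathway could be named only where the study's gene tables paired an Ensembl ID with a symbol, and BOLA-DQA2 and BOLA-DRB3, which the study also named, could not be paired and are not analysed here. That held for 2879 of the 12964 genes tested, and 93.5% of those had a standardized difference of 1.5 or more in size in at least 1 comparison, against 3.52% of the genes with no symbol. The listed genes below were thus largely picked by the study for their differences in these calves, and their counts are no independent evidence. Among the named genes, 49.15% were below 0 in TR2 vs. CTR and 9.17% were lower at an unadjusted p under 0.05. No listed gene was called by edgeR in any comparison with CTR. Besides the 4 genes, 2 of the 9 other listed class II chains (BOLA-DQA5 and BOLA-DQB), 2 of 8 genes of their transcription control (CIITA and CREB1) and 1 of 9 genes of peptide supply (CTSS) could be named and tested.

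CIITA, which switches class II genes on, had 7.23 ± 5.99 CPM (SD, n = 10) in CTR, 5.52 ± 3.31 (n = 9) in TR1, 3.83 ± 2.04 (n = 10) in TR2 and 5.26 ± 3.40 (n = 9) in TR3. In TR2 vs. CTR CIITA differed by -0.96 ± 0.39 (SE, log2), with an adjusted p of 0.558 in edgeR. Over the 38 calves r of CIITA was 0.77 with CD74, 0.76 with BOLA-DRA, 0.69 with BOLA-DMA and 0.81 with BOLA-DMB, and rho was 0.67 to 0.77. The permutation p of these r values, adjusted over 16 pairs of a class II gene and a marker, was at most 5.33e-05, and that of rho at most 0.00012. Without CTR replicate 1 and TR2 replicate 1, r was 0.68, 0.67, 0.57 and 0.73. Within TR1 the r values were lower, between 0.14 and 0.54 over 9 calves, than within CTR, between 0.88 and 0.91 over 10 calves, and this difference was not tested. CREB1, a factor that binds class II promoters with others, had r = 0.15 with the mean of the class II genes.

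CTSS, the protease that trims the invariant chain in antigen-presenting cells, had an r of 0.88 with the mean of the 4 class II genes, the third highest once these 4 are set aside. It had 9.76 ± 4.10 CPM (SD, n = 10) in CTR, 8.24 ± 2.26 (n = 9) in TR1, 6.61 ± 2.22 (n = 10) in TR2 and 8.85 ± 2.71 (n = 9) in TR3. In TR2 vs. CTR it differed by -0.56 ± 0.22 (SE, log2), with an adjusted p of 0.545 in edgeR. BOLA-DQA5, the alpha chain of a DQ molecule, was absent in some calves and reached 12.8 CPM in others, and its r with the mean of the 4 genes was 0.35. It differed by -2.43 ± 0.92 (SE, log2) in TR1, -1.52 ± 0.85 in TR2 and -1.12 ± 0.91 in TR3 vs. CTR, and none of these was called. BOLA-DQB (ENSBTAG00000019588), a beta chain of DQ, had 18.5 ± 13.0 CPM (SD, n = 10) in CTR, 10.9 ± 6.78 (n = 9) in TR1, 9.95 ± 6.45 (n = 10) in TR2 and 13.7 ± 7.71 (n = 9) in TR3. Its r with the mean of the 4 genes was 0.68. It differed by -0.74 ± 0.46 (SE, log2) in TR1, -0.86 ± 0.45 in TR2 and -0.34 ± 0.49 in TR3 vs. CTR, with adjusted p-values of 1.00, 0.600 and 1.00 in edgeR.

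Ranked by r with the mean of the class II genes over 38 calves, 9 of the 10 most alike genes with a symbol were CTSS, TAP1 (0.88), UBA7 (0.87), PSMB8 (0.87), IFI27 (0.86), PSMB9 (0.86), PARP14 (0.85), MX2 (0.85) and B2M (0.85). TAP1 is a chain of the transporter that feeds peptides to MHC class I, PSMB8 and PSMB9 are subunits of the immunoproteasome, and B2M is the light chain of class I. IFI27 and MX2 are interferon-induced, and UBA7 activates ISG15, an interferon-induced ubiquitin-like protein. Over all genes tested the median r was 0.01, and 74 genes (0.571%), the 4 themselves included, had r above 0.7, of which 25 have no symbol. The lowest r among genes with a symbol was that of KLHL40 (-0.77), a muscle protein that stabilizes thin filaments. EIF3B (-0.75), a subunit of a translation initiation factor, and YWHAH (-0.72), a 14-3-3 protein, followed. The measure is a description, since all genes share the same libraries.

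Genes of MHC class I presentation gave a median r of 0.73 over 11 of 18 listed genes, from -0.23 for CALR to 0.88 for TAP1. Among these 11, the class I genes BOLA, BOLA-NC1 and JSP.1 had lower r, at 0.34, 0.54 and 0.22. In TR2 vs. CTR 10 of the 11 were below 0, their median was -0.58, and 4 were lower at an unadjusted p under 0.05: TAP1 (-1.03 ± 0.42, SE), TAP2 (-0.60 ± 0.22), ERAP2 (-0.99 ± 0.30) and PSMB9 (-1.11 ± 0.37). The interferon gamma list had a median r of 0.68 over 6 of 13 genes, and in TR2 vs. CTR all 6 were below 0, with a median of -1.46 and 4 lower at that level. Among them GBP2, an interferon-induced GTPase, differed by -2.97 ± 0.86 (SE, log2) with an adjusted p of 0.497 in edgeR, at levels of 1.25 ± 2.02 CPM (SD, n = 10) in CTR and 0.146 ± 0.0754 (n = 10) in TR2. The type I interferon list had the highest median r of the lists with several genes, 0.76 over 12 of 17 genes. In TR2 vs. CTR all 12 were below 0 and 8 were lower at an unadjusted p under 0.05, with a median of -0.87. In TR1 vs. CTR 4 of these 12 were below 0 and the median was 0.24, while class I presentation had 10 of 11 below 0 with a median of -0.27. The interferon gamma list had 6 of 6 below 0 in TR1 vs. CTR, with a median of -0.73 and 2 lower at an unadjusted p under 0.05. Those 2 were GBP2 and CXCL10, with low TR1 means of 0.413 and 0.433 CPM. Of all genes with a symbol, 49.08% were below 0 in TR1 vs. CTR and 2.74% were lower at that level. The class I gene listed as BOLA differed by -1.98 ± 0.49 (SE, log2) in TR1 vs. CTR, with an adjusted p of 1.00 in edgeR.

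**Figure D4:**
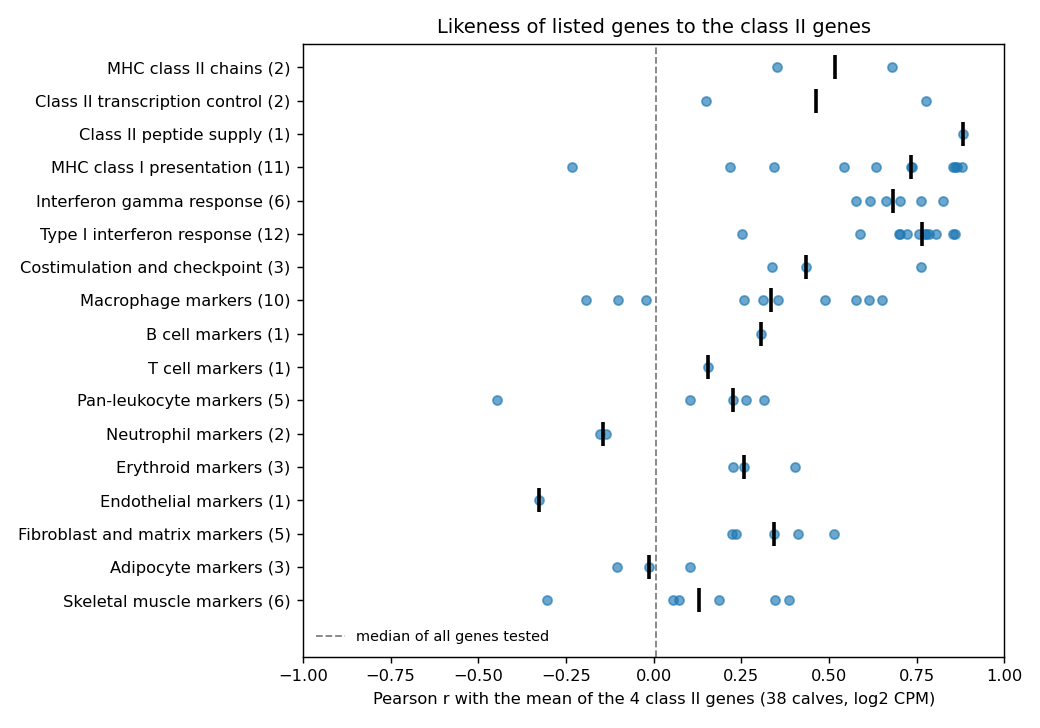
Pearson's r of each listed gene with the mean of the 4 class II genes over 38 calves (log2 CPM), 1 point per gene and list, with the number of genes in parentheses, the median as a black bar and the median of all genes tested as a dashed line. The medians of the class I, interferon gamma and type I interferon lists lie to the right, at 0.73, 0.68 and 0.76. Single genes of these lists lie further left, such as CALR, JSP.1 and BOLA of class I at -0.23, 0.22 and 0.34 and IFI35 of type I at 0.25. The medians of pan-leukocyte and muscle genes are nearer to 0.

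In a bulk biopsy, fewer cells of a type and less RNA per cell cannot be told apart, so markers of the cells that make class II molecules are given beside these results. Of 17 macrophage markers 10 could be named, and 8 of the 10 were below 0 in TR2 vs. CTR, with a median of -0.22 and none lower at an unadjusted p under 0.05. Their summed level was 19.9 to 82.3 CPM in CTR, 13.3 to 94.2 in TR1, 5.07 to 70.1 in TR2 and 25.1 to 70.4 in TR3. MRC1, the mannose receptor, gave most of the CPM in this sum, which does not compare transcript levels between genes. MRC1 had 30.9 ± 16.2 CPM (SD, n = 10) in CTR and 23.4 ± 16.5 (n = 10) in TR2. CD14, LYZ, SIGLEC1, CD209 and FCGR3A were at 0 in at least 1 calf. MRC1 had r = 0.67 with CD74, 0.65 with BOLA-DRA, 0.60 with BOLA-DMA and 0.62 with BOLA-DMB, with a permutation p adjusted over the 16 pairs of at most 0.00016. Spearman's rho was 0.46 to 0.57 (adjusted p at most 0.00938), and r was 0.57, 0.55, 0.49 and 0.51 without CTR replicate 1 and TR2 replicate 1. The study had listed MRC1 together with the 4 class II genes as lower in all supplemented groups of these calves. These correlations are therefore no independent evidence. Over the 10 markers the median r with the mean of the 4 genes was 0.33, from -0.19 for CD163 to 0.65 for MRC1. FCGR3A had 0.62, C1QC 0.58, F13A1 0.49 and LYZ 0.35. CSF1R had 0.31, SIGLEC1 0.26, CD14 -0.02 and CD209 -0.10. The part of macrophages in the result was not tested.

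PTPRC (CD45), carried by all leukocytes, had r of 0.27 to 0.33 with the 4 genes and rho of 0.25 to 0.29. Its adjusted permutation p ran from 0.0681 to 0.0961 for r and from 0.118 to 0.130 for rho, and r was 0.12 to 0.19 without the same pair of calves. The 5 pan-leukocyte markers with a symbol gave a median of -0.34 (log2) in TR1 vs. CTR with 5 of 5 below 0, -0.04 in TR2 with 3 of 5 and -0.20 in TR3 with 4 of 5. Among them CD53 was at -0.86 ± 0.40 (SE, log2; unadjusted p 0.0395) in TR1 and HCLS1 at 0.64 ± 0.27 (unadjusted p 0.0248) in TR2. The 5 markers summed to 13.2 to 26.0 CPM in CTR, 14.3 to 23.5 in TR1, 13.7 to 25.7 in TR2 and 11.2 to 21.6 in TR3, and their part in the result was not tested. CD79B was the B cell marker with a symbol and CD8A that of T cells, and both were at 0 in at least 1 TR2 calf. CD79B differed by -0.93 ± 0.36 (SE, log2) in TR2 vs. CTR and had r = 0.31 with the mean of the class II genes. None of 6 dendritic cell markers could be named. Erythroid markers, a measure of blood in the biopsy, were below 0 for 3 of 3 genes in each comparison with CTR, with medians of -0.80 in TR1, -0.95 in TR2 and -0.59 in TR3, and sums from 8.60 to 452 CPM in CTR and from 6.17 to 455 in TR2. Their mean had r of 0.30 to 0.33 and rho of 0.27 to 0.29 with the 4 genes, with adjusted permutation p-values of 0.0681 to 0.0801 and 0.118 to 0.120, and r of 0.37 to 0.39 without the same pair of calves. The part of blood in the result was not tested.

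The 6 skeletal muscle genes with a symbol had a median r of 0.13 with the mean of the class II genes and a median difference of 0.01 (log2) in TR2 vs. CTR, 3 of 6 being below 0. All 5 fibroblast and matrix genes with a symbol were lower in TR2 vs. CTR at an unadjusted p under 0.05, with a median of -0.57 (log2), against medians of 0.04 in TR1 and -0.19 in TR3, and their median r with the class II genes was 0.34. VWF, made by endothelium, had r = -0.33 and was 0.35 ± 0.16 (SE, log2) higher in TR2 than in CTR. The median in TR2 vs. CTR was -0.61 (log2) over 3 of 6 costimulation genes, with CD274, the ligand of the checkpoint receptor PD-1, at 0.546 ± 0.592 CPM (SD, n = 10) in CTR and 0.131 ± 0.142 (n = 10) in TR2. The corresponding median was 0.48 over 2 of 5 neutrophil markers and -0.70 over 3 of 4 adipocyte markers. None of these marker differences passed the adjustment over all genes.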

How the data were processed

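RNA was extracted from LD muscle biopsies of 38 calves and sequenced from strand-specific poly-A libraries. The authors mapped reads to the bovine genome (ARS-UCD 1.2) with STAR 2.7.3a and deposited raw counts per Ensembl gene, with no pooling. From these counts, genes were filtered with filterByExpr given sex and group, leaving 12964 of 27607, scaled by TMM and tested in R 4.3.3 with edgeR 4.0.16 (quasi-likelihood F-test, dam age, sex and group, Benjamini-Hochberg, 0.05). DESeq2 1.42.0 gave the alternative test and the variance-stabilized values. CPM use TMM-scaled library sizes, and log2 CPM a prior count of 2. The fit was tested on simulated data, and no result given here rests on that test. No file gave gene positions or sequences in the build used, so none is printed. Symbols came from the study's supplementary gene tables, and 1 listed gene (BOLA-DQB) was matched through a RefSeq synonym.

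The 4 genes and 18 gene lists were chosen with earlier results of these data known. Named genes were the 4, their listed pathway and marker genes, and the 10 most and 3 least alike by r, of which 1 is not reported here. Alternatives were DESeq2, library size scaling, no filter on low counts, a fit on group alone, dam age in classes, only the groups compared, males only, a robust fit and leaving out each calf. No calves agreed within sampling noise (lowest chi-square per degree of freedom 17.8).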

Additional observations from a re-analysis of the deposited data

How the results depend on the processing

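None of the 4 genes was called under any alternative in any comparison, and adjusted p-values in TR2 vs. CTR ranged from 0.250 to 0.984. In TR1 and TR2 vs. CTR each gene stayed below 0 in all 46 alternatives. In TR3 vs. CTR signs changed: leaving out 1 calf gave -0.30 to 0.063 for CD74, -0.41 to 0.096 for BOLA-DMA and -0.46 to 0.047 for BOLA-DMB, the upper ends without CTR replicate 1, and males only gave 0.056 for CD74. The interaction with sex for BOLA-DRA ran from -0.089 to 0.63, the lower end also without CTR replicate 1. The cause was not tested. On log2 CPM the standardized differences were -1.38 for CD74, -1.27 for BOLA-DMA and -1.46 for BOLA-DMB in TR1, and -1.10 for CD74 in TR3. Genes called over all genes: DESeq2 gave 1 in TR2 vs. CTR and 7 for sex. Without the filter there were 2 in TR3 vs. CTR, 13 for any difference among the 4 groups, 15 among the supplemented groups, 4 in TR2 vs. TR3, 11 for sex and 3 for dam age. Leaving out 1 calf gave 0 to 1 in TR1 and TR2 vs. CTR and for dam age, 0 to 2 for the mean of the supplemented groups and 4 to 8 for sex. Counts of 11 reads for BOLA-DMB in the lowest calf limit its precision there.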
